A study of Mus musculus with 10 samples.

Results

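The unfolded protein response is the set of signals by which a cell adjusts the folding capacity of its endoplasmic reticulum (ER). The 10 genes described here are regulators and effectors of it, chosen by name: Xbp1, Atf4, Atf6, Ddit3, Herpud1, Edem1, Ern1, Ern2, Creb3l1 and Creb3l4. All 10 were found among the 24525 genes of the expression table, and all 10 passed the filter of a mean of at least 1 FPKM (fragments per kilobase of transcript, scaled to the mapped fragments of the library), as did 13016 genes in all. RNA was sequenced from 5 colorectal tumours and 5 samples of adjacent colon, each group numbered 1 to 5. The mice were male C57BL/6N (C57BL/6 in the strain label), 7 weeks old at the start, and received 1 injection of azoxymethane (AOM, a colon carcinogen) at 12.5 mg/kg. Dextran sulfate sodium (DSS), an irritant of the gut lining, followed at 2% in the drinking water in 3 cycles, each of 5 days with DSS and 16 days without. Tissue was taken 10 weeks after AOM. The adjacent samples therefore come from mice treated with the same carcinogen and irritant, and no library from the 3 untreated mice of the study was analysed here. The source labels of all 10 libraries name mouse 1, so the labels leave unsettled which of them share an animal, and p-values measure only how far these samples spread, and that spread may be technical.

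As background, the response starts at sensors in the ER membrane. The kinase and endonuclease IRE1, encoded by Ern1 in most tissues and by Ern2 in mucosal epithelium, splices the Xbp1 mRNA so that it encodes an active transcription factor. PERK, encoded by Eif2ak3, phosphorylates a translation initiation factor, after which Atf4 and then Ddit3 (CHOP) are induced. ATF6 moves to the Golgi, where proteases release its transcription factor domain, and the OASIS family, which includes Creb3l1 and Creb3l4, is released in the same way. In the colon this machinery is known above all from goblet cells and plasma cells, which secrete large amounts of glycoprotein. FPKM per gene does not separate spliced from unspliced Xbp1 mRNA, nor cleaved from whole ATF6, so the values below are transcript levels and not activities.

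Of the 10 regulators, 7 were lower in tumours and 1 was higher, by limma on log2(FPKM + 1) with p-values adjusted by Benjamini-Hochberg over all 13016 genes at a threshold of 0.05. The 7 were Creb3l1, Ern2, Herpud1, Creb3l4, Edem1, Ddit3 and Atf6, the 1 was Ern1, and Xbp1 and Atf4 did not pass. Calls were common in this comparison: 76.5% of all tested genes were called, 57.2% as higher and 19.3% as lower in tumours. The median log2 change (tumour minus adjacent) was -0.42 over the regulators and 0.35 over all tested genes. The groups did not overlap for 6 of the 10 regulators, against 60.9% of all tested genes. The summed FPKM was not higher in tumour libraries, at 462009 to 477900 against 475117 to 484712 in adjacent ones. Because the median log2 change was nonetheless 0.35, the comparison was repeated with each library's median subtracted. The calls over all genes were then 67.7%, split into 34.5% higher and 33.3% lower, so that 50.9% of calls were higher instead of 74.8%, and 8 regulators were lower and none higher. At an unadjusted p under 0.05 limma also found 0 regulators higher with medians subtracted or with quantile normalization.

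**Figure D1:**
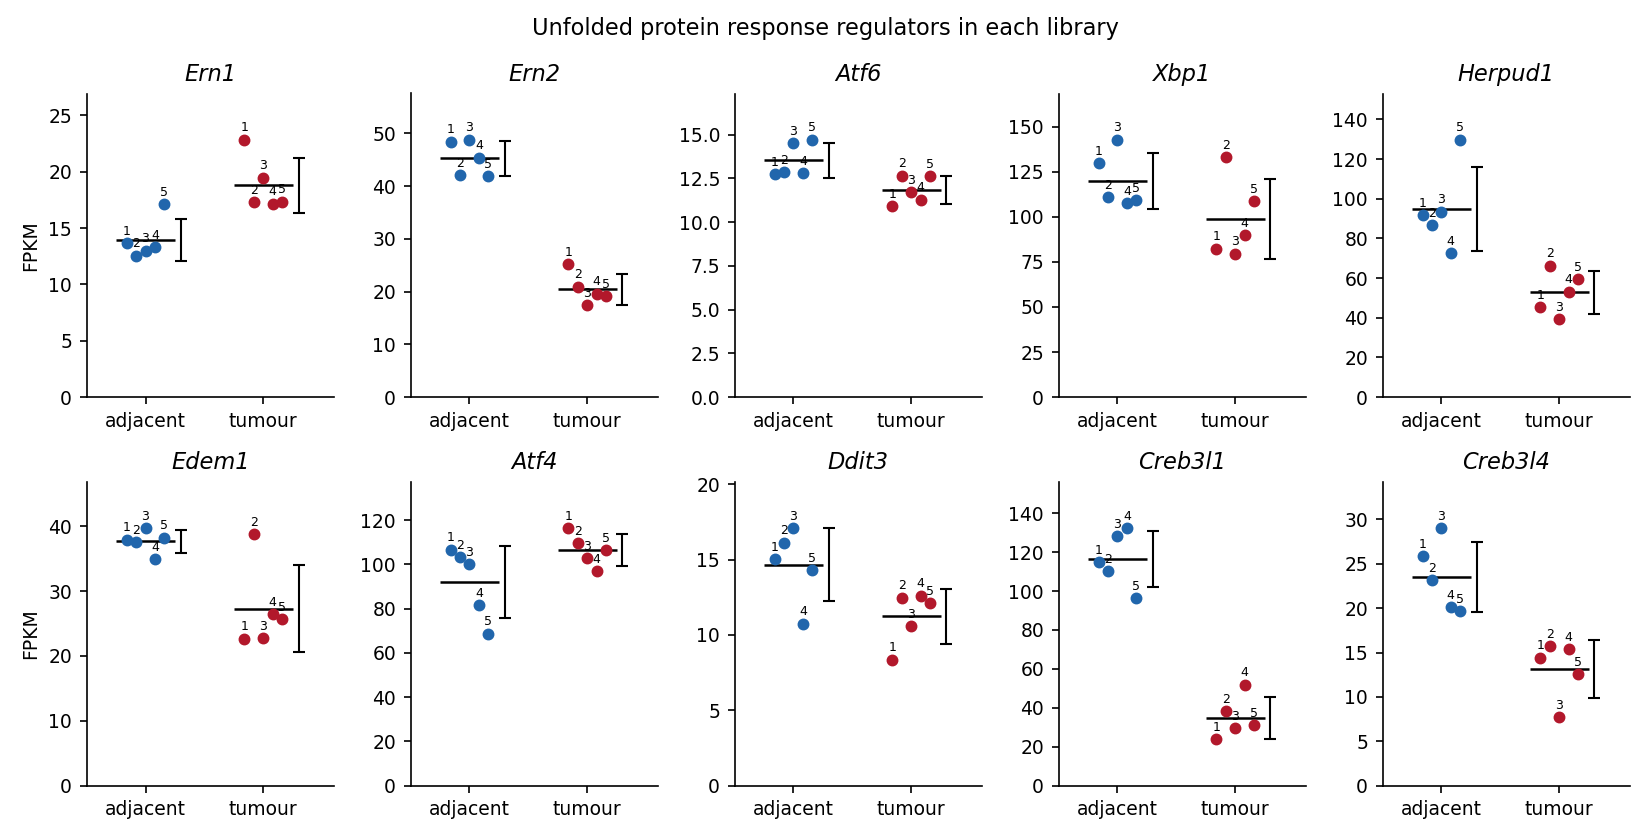
FPKM of each of the 10 regulators (y axis, from 0) in the 5 adjacent and 5 tumour libraries, with the library number beside each point, a line at the group mean and a bar of 1 SD. Creb3l1 and Ern2 show the widest separation of the groups, Xbp1, Edem1, Atf4 and Ddit3 overlap, and Ern1 is the gene whose tumour values all lie above the adjacent ones.

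The 2 genes for IRE1 went in opposite directions. Ern2 (chromosome 7, 122169893 to 122186207, GRCm38), the IRE1 gene of mucosal epithelium, was at 48.42, 42.14, 48.79, 45.41 and 41.86 FPKM in adjacent samples 1 to 5 and at 25.24, 20.94, 17.46, 19.61 and 19.18 FPKM in tumours 1 to 5. Every tumour lay below every adjacent sample. The mean fell 2.21-fold, from 45.3 ± 3.31 to 20.5 ± 2.93 FPKM, these and later errors of means being SDs over n = 5 libraries per group (limma: log2 change -1.12, SE 0.09, adjusted p = 1.48e-05). Ern1 (chromosome 11, 106394650 to 106487852), the widely expressed IRE1 gene, was at 13.66, 12.56, 12.99, 13.32 and 17.14 FPKM in adjacent samples and at 22.84, 17.29, 19.48, 17.17 and 17.34 FPKM in tumours. The groups did not overlap, but adjacent sample 5, at 17.14 FPKM, was next to tumour 4, at 17.17 FPKM. The mean rose 1.35-fold, from 13.9 ± 1.84 to 18.8 ± 2.44 FPKM (limma: log2 change 0.41, SE 0.10, adjusted p = 0.00409). This rise was close to the shift of the median gene: with medians subtracted the log2 change was 0.08 (limma adjusted p = 0.484), and quantile normalization gave 0.14 (limma, 0.22).

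The 2 genes were also compared within each library, which FPKM allows for genes of different length. On the log2(FPKM + 1) scale Ern2 exceeded Ern1 by 1.64 ± 0.23 in adjacent samples (1.24 to 1.83) and by 0.11 ± 0.16 in tumours (-0.15 to 0.26, n = 5 per group). The difference between the groups was -1.52 (exact permutation test over libraries, two-sided p = 0.00794, the smallest that 5 against 5 can give, and 0.00794 after adjustment over 4 such comparisons). The groups overlapped for neither gene, and the 2 genes moved in opposite directions. This p-value was therefore fixed in advance and adds nothing to the tests of each gene. In adjacent colon Ern2 was thus the more abundant IRE1 transcript in all 5 libraries, and in tumours the 2 were near equal, with Ern1 above Ern2 in tumour 3.

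Atf6 (chromosome 1, 170704674 to 170867771), the sensor that becomes a transcription factor, was at 12.75, 12.86, 14.52, 12.81 and 14.70 FPKM in adjacent samples and at 10.91, 12.65, 11.72, 11.28 and 12.63 FPKM in tumours. The groups did not overlap, with tumour 2 at 12.65 FPKM next to adjacent sample 1 at 12.75 FPKM. The mean fell 1.14-fold, from 13.5 ± 0.99 to 11.8 ± 0.79 FPKM (limma: log2 change -0.18, SE 0.07, adjusted p = 0.0384). Leaving out adjacent sample 3 or 5, or tumour 1, 3 or 4, ended that call (limma adjusted p from 0.0688 to 0.0924), as did leaving out tumours 2 and 4 together (0.0583). Atf6 passed by a wider margin under both other scalings: subtracting medians gave -0.51 (limma adjusted p = 0.000113), and quantile normalization -0.49 (limma, 0.000144).

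Of the 7 genes fixed as sensors and their proteases, 4 rose and 2 fell, with a median log2 change of 0.41, and 3 rose with medians subtracted. Over all tested genes 57.2% were higher and 19.3% lower. The number of falls in the list was 1 wherever the Atf6 call was lost, and quantile normalization gave 2 rises. Atf6b, a paralog of Atf6, went the other way from it: it was at 26.3 ± 2.94 FPKM in adjacent samples and at 42.5 ± 4.89 FPKM in tumours, a log2 change of 0.67 (limma adjusted p = 0.000132). Mbtps1, the site-1 protease that cuts ATF6 in the Golgi, rose by 0.62 (limma adjusted p = 0.000268). Eif2ak3, the gene for PERK, did not pass, at 18.2 ± 1.48 and 19.8 ± 2.62 FPKM (limma adjusted p = 0.30). Its direction depended on the scaling, with a log2 change of 0.11 that became -0.22 with medians subtracted.

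Xbp1 (chromosome 11, 5520659 to 5525893), the transcription factor that IRE1 splicing activates, was at 129.80, 111.08, 142.70, 107.43 and 109.37 FPKM in adjacent samples and at 82.35, 132.91, 79.54, 89.65 and 108.63 FPKM in tumours. Tumour 2 was the second highest library of all 10, and tumour 5 also lay within the adjacent range, while tumours 1, 3 and 4 lay below it. The means were 120 ± 15.5 and 98.6 ± 22.3 FPKM, a log2 change of -0.30 (SE 0.15) that did not pass (limma adjusted p = 0.0809). Without tumour 2 the log2 change was -0.41 and passed (limma adjusted p = 0.00772), as it did with medians subtracted (-0.63, adjusted p = 0.00351).

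The genes whose pattern over the 10 libraries was most like that of Xbp1, by Pearson r of log2(FPKM + 1) among all tested genes, were Jchain (r = 0.957), A4gnt (r = 0.953) and Mzb1 (r = 0.934). Jchain, the joining chain of secreted IgA and IgM, and Mzb1, an ER protein of antibody-secreting cells, are plasma cell genes. They were picked as the highest over all tested genes, the 10 libraries share their scaling and their group difference, and the r values are a description only. Jchain was at 320.05, 175.90, 342.19, 105.35 and 187.65 FPKM in adjacent samples and at 27.48, 452.07, 43.30, 82.90 and 130.27 FPKM in tumours, and did not pass (limma adjusted p = 0.127). Tumour 2 was the highest library for Jchain and the second highest for Xbp1. Of 9 tested plasma cell markers, 2 rose (Sdc1 and Prdm1, which epithelial or other cells also express) and 1, Cd79a, fell. Over all tested genes 57.2% were higher and 19.3% lower. The Cd79a call ended in 7 of the 10 fits that left out 1 library. Without tumour 2, 4 of the 9 markers fell, where 2605 of all 13016 tested genes did. The 4 were Jchain, Mzb1, Cd79a and Cd79b, of which the Cd79 genes encode B cell receptor chains and do not mark plasma cells alone. The summed level of the 10 listed markers ranged from 232 to 505 FPKM in adjacent samples and from 255 to 678 FPKM in tumours, and none was at 0 in any library. Of these sums, Sdc1 alone made up 87.66 to 131.34 FPKM in adjacent samples and 163.79 to 228.66 FPKM in tumours. They therefore do not show equal plasma cell transcript levels. Jchain lay below every adjacent sample in tumours 1, 3 and 4, within their range in tumour 5 and above it in tumour 2. The part of these cells in the Xbp1 values was not tested, and in whole tissue fewer cells of a type and less RNA per cell cannot be told apart.

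**Figure D2:**
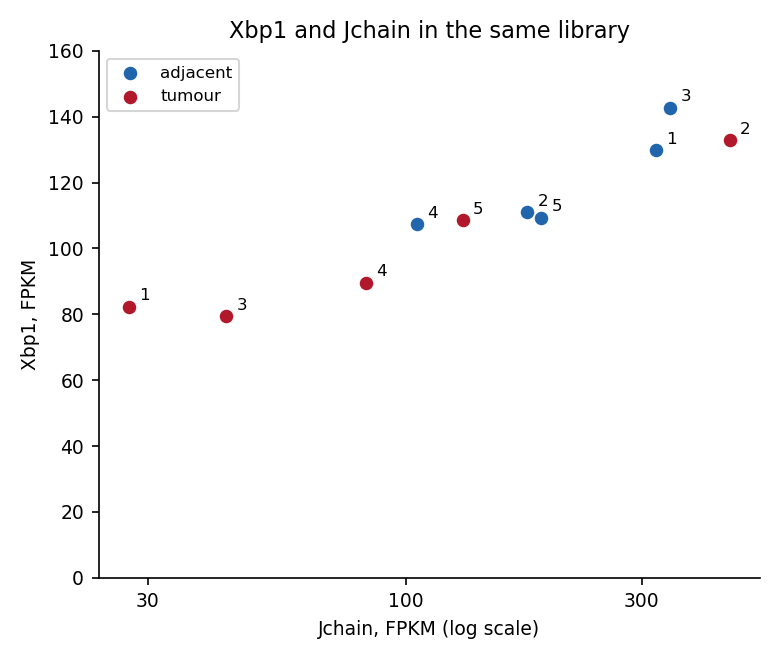
Xbp1 (y axis, FPKM from 0) against the plasma cell gene Jchain (x axis, FPKM on a log scale) in each library, blue for adjacent and red for tumour, with library numbers. Tumours 1 and 3 lie lowest for both genes, and tumour 2, at 132.91 FPKM of Xbp1 and 452.07 FPKM of Jchain, lies with adjacent samples 1 and 3.

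Herpud1 and Edem1 act in ER-associated degradation, by which misfolded proteins are moved out of the ER and destroyed. Herpud1 (chromosome 8, 94386438 to 94395377), a membrane component of the retrotranslocation complex, was at 91.64, 86.88, 93.44, 72.50 and 129.74 FPKM in adjacent samples and at 45.49, 66.28, 39.44, 53.26 and 59.57 FPKM in tumours. The groups did not overlap, and the highest tumour, tumour 2, lay close to the lowest adjacent sample, sample 4. The mean fell 1.80-fold, from 94.8 ± 21.2 to 52.8 ± 10.7 FPKM (limma: log2 change -0.83, SE 0.17, adjusted p = 0.00109). Edem1 (chromosome 6, 108828641 to 108859356), which marks misfolded glycoproteins for removal by acting on their mannose, was at 37.91, 37.58, 39.68, 34.90 and 38.25 FPKM in adjacent samples and at 22.69, 38.82, 22.74, 26.41 and 25.72 FPKM in tumours. Tumour 2 lay inside the adjacent range and the other 4 tumours below it. The mean fell 1.38-fold, from 37.7 ± 1.74 to 27.3 ± 6.67 FPKM (limma: log2 change -0.48, SE 0.13, adjusted p = 0.00608), or -0.61 without tumour 2 (adjusted p = 2.67e-05) and -0.81 with medians subtracted (adjusted p = 0.00054).

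The upstream sequences of the regulators were searched for the elements that unfolded protein response factors are known to bind. RefSeq windows (GRCm38.p6) from 250 bases before to 50 bases after an annotated start were matched for 7 regulators, with 9 windows. No window was matched for Atf6, Ern2 and Creb3l1, all of them called lower. The motifs, on both strands, were the ER stress response element ERSE (CCAAT, 9 bases of any kind, CCACG), ERSE-II (ATTGG, any base, CCACG), the core of the unfolded protein response element (TGACGTG), a C/EBP-ATF site of the kind ATF4 uses (TGATG, any base, AA) and the CCAAT box (CCAAT), which lies within ERSE and, reversed, within ERSE-II. Herpud1 held an ERSE-II, as did 0.0365% of 32851 such windows of all genes, and a C/EBP-ATF site, as did 3.97%. None of the other 8 windows held either, and none of the 9 held an ERSE (0.119% of all windows) or the core element (2.01%). A CCAAT box was in 6 of the 9 windows, against 37.4% of all. The Herpud1 stretch is shown because it holds both of these matches, with the one from the chaperone gene Hspa5, which holds an ERSE, for comparison. Capitals mark the C/EBP-ATF site (first, on the reverse strand) and the ERSE-II in Herpud1, and the ERSE in Hspa5. Both run 5′ to 3′ on the forward strand, Herpud1 at chr8:94386289-94386408 and Hspa5 at chr2:34772010-34772069.
Herpud1: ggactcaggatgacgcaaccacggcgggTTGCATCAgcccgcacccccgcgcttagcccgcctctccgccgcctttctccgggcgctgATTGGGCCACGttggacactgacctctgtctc
Hspa5: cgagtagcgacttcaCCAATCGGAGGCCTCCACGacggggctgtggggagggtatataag
A match describes letters in a window and is not evidence of binding. The part of these elements in the changes was not tested. Hspa5, the ER chaperone BiP and the usual reporter of this response, was at 341.90, 199.45, 320.71, 236.52 and 249.23 FPKM in adjacent samples and at 239.46, 356.36, 278.32, 278.78 and 391.60 FPKM in tumours. Its groups overlapped and it did not pass (log2 change 0.20, limma adjusted p = 0.307), whereas Herpud1 was lower in every tumour.

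Atf4 (chromosome 15, 80255184 to 80257541), the factor translated when PERK or a related kinase is active, was at 106.70, 103.29, 100.08, 81.51 and 68.72 FPKM in adjacent samples and at 116.28, 109.50, 102.74, 96.99 and 106.56 FPKM in tumours. The groups overlapped, mainly because adjacent samples 1 to 3 were at tumour levels. The means were 92.1 ± 16.3 and 106 ± 7.23 FPKM, a log2 change of 0.22 (SE 0.12) that did not pass (limma adjusted p = 0.109) and was -0.11 with medians subtracted. Atf4 protein is controlled mostly at translation, which these data do not measure.

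Ddit3 (chromosome 10, 127290774 to 127296288), which encodes CHOP, a factor linked to cell death under prolonged stress, was at 15.02, 16.11, 17.07, 10.74 and 14.29 FPKM in adjacent samples and at 8.35, 12.48, 10.59, 12.61 and 12.11 FPKM in tumours. Adjacent sample 4 lay among the tumours and the other 4 adjacent samples above all of them. The mean fell 1.30-fold, from 14.7 ± 2.43 to 11.2 ± 1.80 FPKM (limma: log2 change -0.35, SE 0.14, adjusted p = 0.0355). Leaving out adjacent sample 1, 2, 3 or 5, or tumour 1 or 3, ended the call (limma adjusted p from 0.0556 to 0.0852), as did a replicate block (0.0644). Subtracting medians gave -0.68 (limma adjusted p = 0.00123), and quantile normalization -0.67 (limma, 0.0014). In the annotation 3.97% of the exonic bases of Ddit3 overlap exons of Mars on the other strand, and strand is not marked by this library kit.

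The integrated stress response list holds Atf4, Ddit3, kinases other than PERK (which is counted among the sensors) and targets. Of its 19 tested genes, 7 rose, 4 fell and 8 did not pass, with a median log2 change of 0.20. With medians subtracted 5 rose and 6 fell. The shares over all tested genes were 57.2% higher and 19.3% lower, and 34.5% and 33.3% with medians subtracted. Slc7a11, the cystine transporter subunit, rose from 1.55 ± 0.64 to 12.8 ± 10.7 FPKM (limma: log2 change 2.19, adjusted p = 0.000802), with tumour 3 highest at 30.98 FPKM. Psat1, an enzyme of serine synthesis, rose from 6.31 ± 1.24 to 18.7 ± 3.55 FPKM (limma: log2 change 1.43, adjusted p = 2.17e-05). Nupr1, a stress-induced nuclear protein, fell by 0.78 on the log2 scale (limma adjusted p = 0.0177), and Ppp1r15b, a phosphatase subunit that reverses the PERK signal, fell by 0.42 (limma adjusted p = 0.000807). Trib3, a CHOP target below the expression filter, had means of 0.52 and 1.43 FPKM in adjacent samples and tumours.

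Creb3l1 changed most of the 10. Creb3l1 (chromosome 2, 91982328 to 92024502), the OASIS transcription factor known for collagen secretion in bone, was at 114.91, 110.24, 128.06, 132.25 and 96.21 FPKM in adjacent samples and at 23.88, 38.39, 29.64, 51.94 and 31.23 FPKM in tumours. Every tumour lay far below the lowest adjacent sample, with tumour 4 the highest tumour. The mean fell 3.32-fold, from 116 ± 14.5 to 35.0 ± 10.8 FPKM (limma: log2 change -1.74, SE 0.18, adjusted p = 2.5e-05). Creb3l4 (chromosome 3, 90237500 to 90243512), a related factor of secretory epithelium, was at 25.87, 23.15, 28.99, 20.12 and 19.63 FPKM in adjacent samples and at 14.41, 15.75, 7.70, 15.34 and 12.54 FPKM in tumours. The groups did not overlap, and tumour 3 was lowest. The mean fell 1.79-fold, from 23.6 ± 3.95 to 13.2 ± 3.29 FPKM (limma: log2 change -0.82, SE 0.18, adjusted p = 0.00186).

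In the OASIS family as a whole, 4 of 5 genes fell and Creb3l2 rose, where 19.3% of all tested genes fell and 57.2% rose. Creb3l2, another collagen-linked member, was at 5.08, 3.27, 5.54, 2.93 and 7.21 FPKM in adjacent samples and at 10.74, 14.26, 15.42, 11.36 and 20.68 FPKM in tumours and did not overlap (limma: log2 change 1.43, SE 0.23, adjusted p = 0.000224). In adjacent colon Creb3l1 was thus at least 13.3 times as abundant as Creb3l2 in each library and in tumours at most 4.57 times. Creb3 fell by 0.25 on the log2 scale (limma adjusted p = 0.0244). Creb3l3 fell by 1.45 (limma adjusted p = 0.0277), but its adjacent mean rested on sample 5, at 17.11 FPKM against 2.11 to 3.94 FPKM in the other 4. Without tumour 1 or tumour 3, and with a replicate block, neither Creb3 nor Creb3l3 passed and 2 genes fell. The Creb3 call was also lost without adjacent sample 1 or 3, and that of Creb3l3 without tumour 5 or with a pseudocount of 5 (limma adjusted p = 0.0562).

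**Figure D3:**
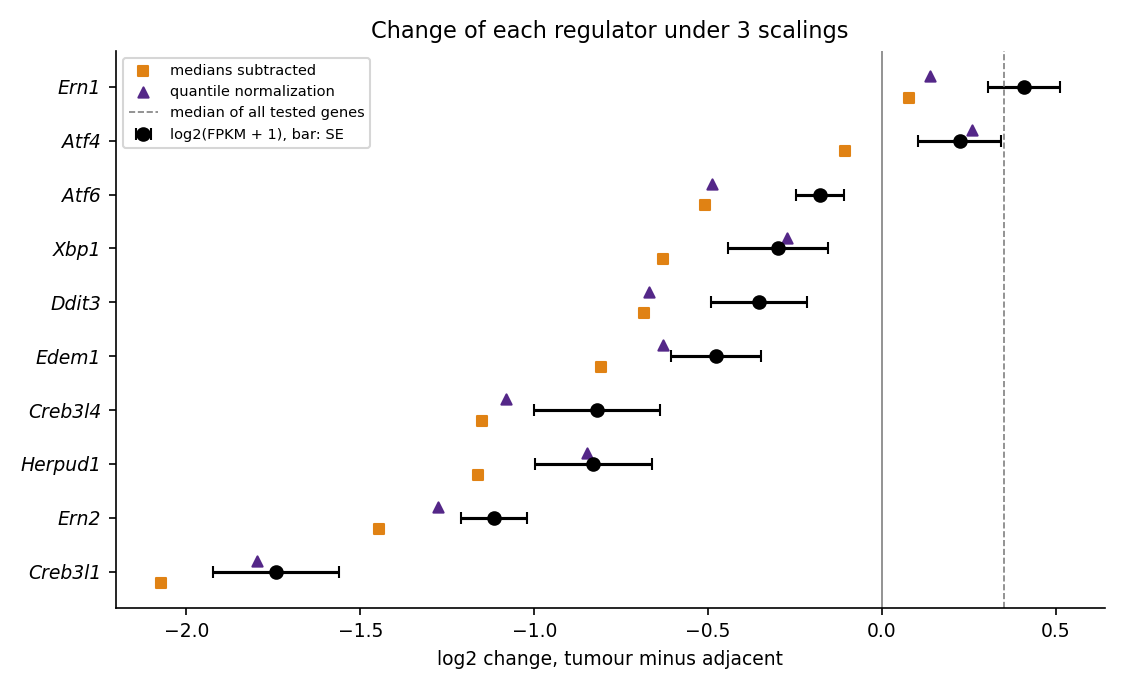
Log2 change (x axis, tumour minus adjacent) of each regulator on the log2(FPKM + 1) scale with its SE (black), with medians subtracted (orange squares) and with quantile normalization (purple triangles). The dashed line marks the median of all tested genes at 0.35, near which Ern1 lies at 0.41, and all other regulators lie to its left.

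Markers of several cell types also differed between the groups, with some lists falling as most regulators did and others rising. Of 14 goblet cell markers 13 fell and 0 rose by limma (0 also at an unadjusted p under 0.05), against 19.3% and 57.2% of all tested genes. One of them, Guca2a, is also expressed by absorptive colonocytes. It fell by 3.73 on the log2 scale and is part of the marker mean used below. The summed level of the 14 was 14490 to 18810 FPKM in adjacent samples and 923 to 4183 FPKM in tumours. Tumours 2 and 4 were highest, at 4183 and 3335 FPKM, against 923 to 1400 FPKM in the other 3. Muc2, the gel-forming mucin, fell by 2.87 on the log2 scale (limma adjusted p = 0.000341). Of 10 pan-epithelial markers 9 fell and Krt18 rose (not with medians subtracted, limma adjusted p = 0.843), from a sum of 10590 to 12410 FPKM to one of 4953 to 8105 FPKM, so epithelial transcripts were abundant in every library. All 9 tested fibroblast markers rose. The sum of the 10 listed ones was 92.6 to 226 FPKM in adjacent samples and 636 to 1059 FPKM in tumours. The tenth, Fap, was below the expression filter, with means of 1.06 FPKM in adjacent samples and 0.51 FPKM in tumours, lower in all 5 tumours. Col1a1, a type I collagen chain, rose by 3.00 on the log2 scale. No marker of these 3 lists was at 0 in any library. Among the other lists, 9 of 10 absorptive colonocyte and all 7 enteroendocrine markers fell, while 6 of 7 macrophage, all 6 neutrophil, all 6 endothelial, all 4 Paneth-like and 3 of 6 smooth muscle markers rose, and 0 of 5 tested T cell markers passed limma (0 also at an unadjusted p under 0.05). With medians subtracted 5 endothelial, 3 Paneth-like and 2 smooth muscle markers rose, and the macrophage and neutrophil counts stayed the same. The call of the Paneth-like marker Defa24 ended in 4 of the fits that left out 1 library. The part of any of these cell types in the regulators' changes was not tested.

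As a description of how they moved beside those markers, Ern2 and Creb3l4 were set against the mean log2(FPKM + 1) of the goblet cell markers in the same library, and Creb3l1 against that of the fibroblast markers. Ern2 lay 3.12 ± 0.22 below the goblet cell markers in adjacent samples (-3.36 to -2.83) and 1.41 ± 0.85 below them in tumours (-2.39 to -0.44), a difference between the groups of 1.71 (n = 5 per group). Creb3l4 lay 4.04 ± 0.29 below them in adjacent samples (-4.49 to -3.72) and 2.04 ± 0.63 below in tumours (-2.78 to -1.21), a difference of 2.00. Both genes thus fell by less than the markers did on average, and the groups did not overlap. Creb3l1 exceeded the fibroblast markers by 3.51 ± 0.50 in adjacent samples (3.08 to 4.24) and by 0.00 ± 0.36 in tumours (-0.43 to 0.52), a difference of -3.50. Creb3l1 fell while the fibroblast markers rose. It was not set against the goblet cell markers, of which 13 of 14 also fell. Over the 10 libraries the Pearson r of Creb3l1 with Ern2 was 0.91. For each of these 3 differences the exact permutation test gave a two-sided p of 0.00794 (0.00794 adjusted over the 4 comparisons), the smallest it can give. For Creb3l1 this was fixed in advance. Its values did not overlap between the groups, nor did the fibroblast marker mean, at 4.84 to 5.53 in tumours and 2.82 to 3.78 in adjacent samples. The goblet cell marker mean did not overlap either, at 5.05 to 6.85 in tumours and 8.26 to 8.89 in adjacent samples. That list was chosen with earlier results of these data known. The p-values of Ern2 and Creb3l4 against it are therefore a description only.

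**Figure D4:**
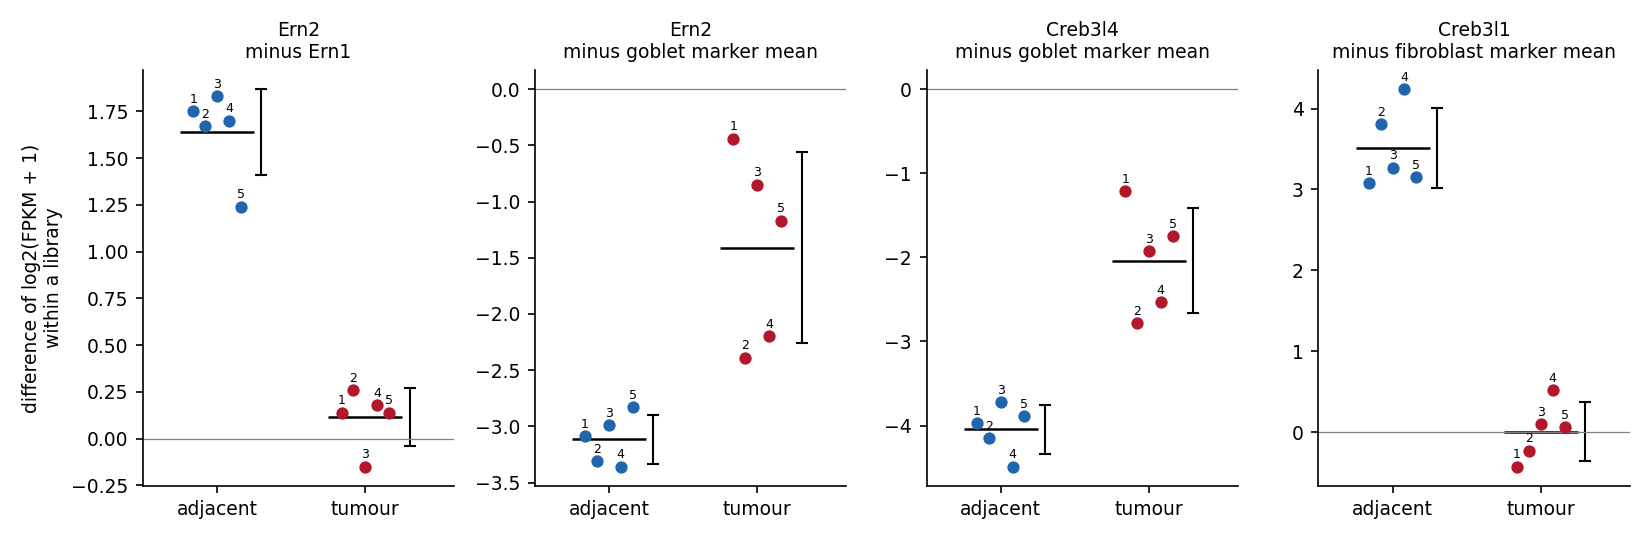
Difference of log2(FPKM + 1) within each library (y axis) for Ern2 minus Ern1, Ern2 and Creb3l4 minus the mean of 14 goblet cell markers, and Creb3l1 minus the mean of 10 fibroblast markers, with a line at each group mean and a bar of 1 SD. In none of the 4 panels do the groups overlap.

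The effectors of the response moved in both directions, as did all tested genes, of which 57.2% were called higher and 19.3% lower. With medians subtracted those shares were 34.5% and 33.3%. Of 24 ER chaperone and folding enzyme genes, 9 rose, 3 fell and 12 did not pass, with a median log2 change of 0.20. With medians subtracted 1 rose and 7 fell, and the median was -0.13, so the direction of this list rests on the scaling, and quantile normalization gave 10 rises and 5 falls. Pdia4, a protein disulfide isomerase, rose from 69.6 ± 14.8 to 111 ± 11.2 FPKM (log2 change 0.68, limma adjusted p = 0.000902) and was the gene still higher with medians subtracted. Hyou1, a large ER chaperone, rose by 0.52 (limma adjusted p = 0.00518), or by 0.19 with medians subtracted (adjusted p = 0.175). Pdia5, another isomerase, fell by 0.61 (limma adjusted p = 0.00149), and Dnajb9, a BiP co-chaperone and target of Xbp1, fell by 0.51 (limma adjusted p = 0.00872).

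Of 20 ER-associated degradation genes, Herpud1 and Edem1 among them, 7 rose, 5 fell and 8 did not pass, with a median log2 change of -0.03. With medians subtracted 2 rose and 12 fell, and with quantile normalization 4 rose and 8 fell. Among all tested genes 57.2% were higher and 19.3% lower, or 34.5% and 33.3% with medians subtracted. Edem3, a relative of Edem1, fell from 23.0 ± 2.53 to 16.1 ± 1.86 FPKM (log2 change -0.49, limma adjusted p = 0.000674), and Selenos, a selenoprotein of the retrotranslocation complex, fell by 0.45 (limma adjusted p = 0.00209). Vcp, the ATPase that pulls proteins out of the ER, rose by 0.73 (limma adjusted p = 9.36e-05), and its cofactor Nploc4 rose by 0.47 (limma adjusted p = 0.000158).

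Of 28 translocation and secretory pathway genes, 13 rose, 6 fell and 9 did not pass, with a median log2 change of 0.17, but 8 rose when adjacent sample 2, 4 or 5, or tumour 5, was left out. With medians subtracted 2 rose and 13 fell, with a median of -0.16. Beside these counts, 57.2% of all tested genes were higher and 19.3% lower, or 34.5% and 33.3% with medians subtracted. Srp14, part of the signal recognition particle, rose by 0.93 (limma adjusted p = 3.78e-05) and Sec63, a translocon component, by 0.51 (limma adjusted p = 0.000408). Arfgap3, a regulator of transport from the Golgi to the ER, fell by 0.83 (limma adjusted p = 4.06e-05), and Kdelr2, a receptor that returns chaperones to the ER, by 0.55 (limma adjusted p = 7.06e-05).

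**Figure D5:**
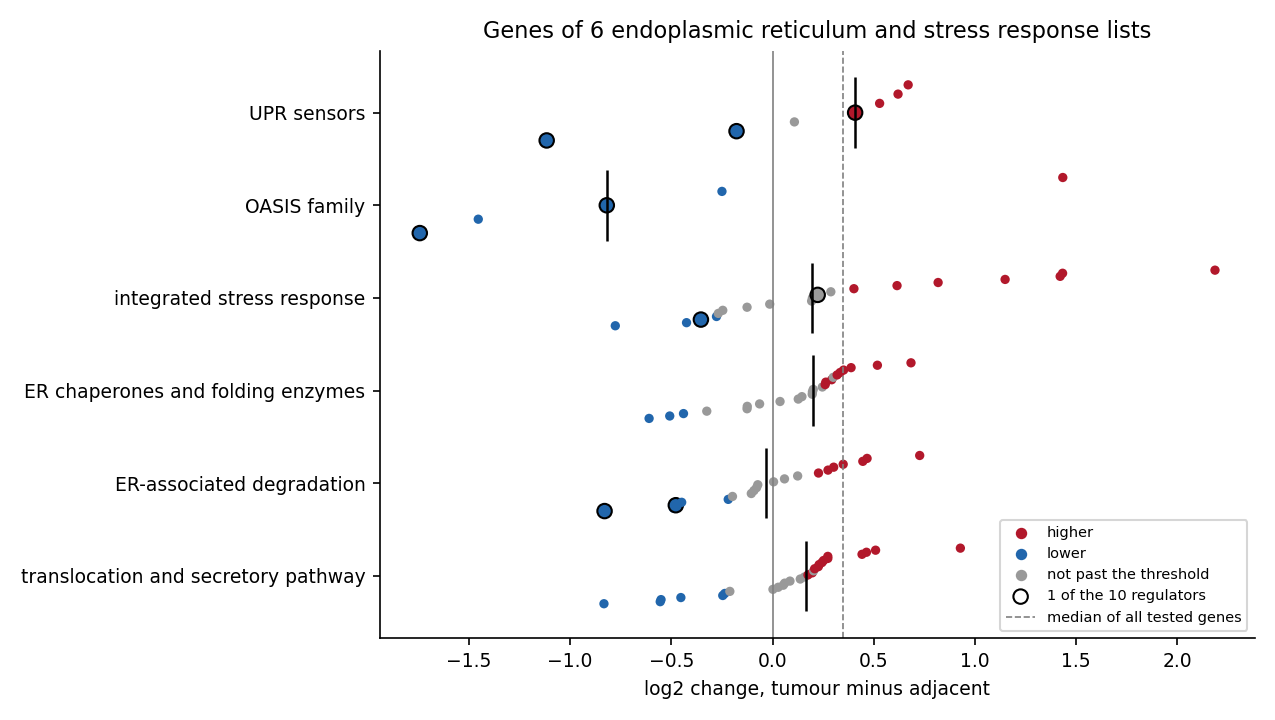
Log2 change (x axis, tumour minus adjacent) of every tested gene in 6 lists, red where higher, blue where lower and grey where not past the threshold, with the regulators ringed, a short line at each list's median and a dashed line at the median of all tested genes. The lists spread to both sides of 0, with medians from -0.82 in the OASIS family to 0.41 among the sensors.

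Ranked by mean FPKM, Xbp1 (120 ± 15.5), Creb3l1 (116 ± 14.5), Herpud1 (94.8 ± 21.2) and Atf4 (92.1 ± 16.3) led in adjacent colon, with overlapping ranges between neighbours. Ern2, Edem1 and Creb3l4 followed, each above the next in all 5 libraries, and Ddit3, Ern1 and Atf6 came last with overlapping ranges. In tumours Atf4 and Xbp1 led, with overlapping ranges and above Herpud1 in all 5 libraries. Creb3l1 had moved from the second place to the fourth, Ern1 lay just below Ern2, and Ddit3 came last.

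The 3 most similar patterns of each other regulator were also listed by Pearson r over the 10 libraries, again only as a description. Creb3l1 was most like Acss2 and Gstm2 (both r = 0.995), Edem1 like Il10rb (r = 0.985), Ern2 like Arfgef2 (r = 0.982), Ern1 like Fbxw11 (r = 0.981) and Herpud1 like Atraid (r = 0.975). The highest r was lower for Creb3l4 (0.953, Ptdss1), Atf6 (0.936, Ric8a), Atf4 (0.927, Ftx) and Ddit3 (0.898, Stx5a). Among the regulators themselves, Ern2 was most like Creb3l1 (r = 0.91) and Xbp1 most like Edem1 (r = 0.877).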

How the data were processed

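The deposited table holds FPKM per gene symbol, as the authors computed them, for 5 tumour and 5 adjacent libraries. Per the labels' protocols, library preparation used oligo-dT selection and the TruSeq RNA v2 kit. Per the submitters' processing notes, the tools include Salmon 0.8.2, RSEM 1.2.15, Cufflinks 2.2.1 and TopHat2 2.1.0 and the build is mm10; the sources used here do not say which of them made the table. Totals were 462009 to 484712 FPKM per library. Depth is not stated: steps between low values gave a rough 20400000 to 25200000 fragments per library, with 62.0% to 70.3% of those values within 0.2 of a whole fragment. One line with text in place of values was left out.

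Values were tested as log2(FPKM + 1) by limma 3.58.1 (R 4.3.3), with tumour against adjacent the sole term, an intensity trend and robust empirical Bayes; the procedure was tested on simulated data. The 1 FPKM added before the log2 understates changes of low genes. Like-numbered libraries had an r over genes above 0.1 in 3 of 5 pairs, and r was positive in all 5 (0.02 to 0.42). Libraries of unlike number had r from -0.44 to 0.32. This check does not exclude pairing. As the labels leave it unsettled, the main fit did not pair them, and a replicate block is reported beside it. At least 17741 genes differed between any pair of libraries. The 10 members and all lists were chosen with earlier results of these data known. Genes named beside the members are, for each list, the 2 strongest called genes in either direction at most, plus a few fixed by name, and the 3 most similar genes per member. Trib3, Fap, Guca2a, Cd79b and Mars are named outside this rule. Exact permutation tests used SciPy 1.17.1. Coordinates are from GENCODE M21 (GRCm38) and promoter windows from RefSeq.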

Additional observations from a re-analysis of the deposited data

Results flagged for a closer look

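In groups of 5 libraries a value was singled out where its gap to the nearest other value, divided by the whole range of the group, was above 0.71. Of 28 groups examined, 3 held such a value, and chance alone gives about 1 in 20. Edem1 was at 38.82 FPKM in tumour 2, against 22.69 to 26.41 FPKM in the other 4 tumours, a gap of 0.769 of the range. Tumour 2 also had the highest tumour sums of goblet cell and plasma cell markers, at 4183 and 678 FPKM, and their part in the Edem1 value was not tested. Ern1 was at 17.14 FPKM in adjacent sample 5, against 12.56 to 13.66 FPKM in the other 4 adjacent samples (0.76 of the range). The excess of Ern2 over Ern1 was accordingly lowest there, at 1.24 on the log2 scale against 1.67 to 1.83 (0.726 of the range).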

How the results depend on the processing

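Under the 2 other scalings no regulator was higher in tumours with medians subtracted or with quantile normalization (0 in each, against 1), since Ern1 no longer passed, and 8 and 7 were lower. With medians subtracted the direction turned for Atf4 (log2 change -0.11), Hspa5 (-0.13) and Eif2ak3 (-0.22), the last also with quantile normalization (-0.14). The calls of all 10 regulators were the same with pseudocounts of 0.1 and 5, no filter on low values, a filter of 5 FPKM and empirical Bayes without trend. With the replicate number as a replicate block, 1 regulator was higher and 6 lower, Ddit3 being lost, and the 4 within-library differences, at -1.52, 1.71, 2.00 and -3.50 for Ern2 minus Ern1, Ern2 and Creb3l4 minus goblet cell markers and Creb3l1 minus fibroblast markers, had an exact p of 0.0625, the smallest that 5 pairs can give. For Ern2 minus Ern1 and Creb3l1 minus fibroblast markers this p-value too was fixed by the separation of the groups. Against the goblet cell markers it is a description only, as that list was chosen with earlier results known. Of the 10 libraries 4 deviated most like the library of their own number. Leaving out each library in turn gave 5 to 8 regulators lower and 1 higher, and the calls of Ern1, Ern2, Creb3l1, Creb3l4, Herpud1 and Edem1 held in all 10 fits. Depth limits the low genes most, and no counting interval could be computed from FPKM.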
